A study of Mus musculus with 27 samples.

Results

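The 10 genes described here, which encode alternative forms of 5 glycolytic enzymes, were followed through mouse retinal development. They are Hk1 and Hk2 (hexokinase), Pfkp and Pfkm (phosphofructokinase), Aldoa and Aldoc (aldolase), Eno1 and Eno2 (enolase) and Ldha and Ldhb (lactate dehydrogenase). They were chosen by symbol, as 10 of the 38168 features in the expression table, and where a symbol occurred more than once, as for Ldhb, the entry with the highest mean was taken. All 10 passed the filter on low values (at least 1 CPM in at least 3 libraries), as did 31760 features in all. CPM is the count of reads of a feature scaled to the total of its library.

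The libraries were made from whole retinas of wild type C57BL/6J mice at embryonic days 14 and 17 (E14 and E17) and postnatal days 1, 6, 15, 28 and 60 (P1, P6, P15, P28 and P60). Each of E14, E17 and P6 had 3 libraries, each of P1, P15 and P28 had 4 and P60 had 6, each from untreated mice whose tissue was collected in the light phase. Embryos and P1 mice were of mixed sexes and later mice were males, so that age and sex cannot be told apart where an age from P6 on is compared with E14, E17 or P1. Libraries came from pooled retinas, except that at P60 only 2 were pools and the other 4 came from individual mice, and which libraries these were is not given in the sources used here. As P60 libraries differ in this way, the spread at that age and the spread at other ages may not be of the same kind, and p-values measure the spread between these libraries.

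Glycolysis splits glucose into pyruvate, and lactate dehydrogenase interconverts pyruvate and lactate. Most steps are catalyzed by enzymes with several genes, whose products differ in tissue distribution, kinetics and regulation. Photoreceptors, the most abundant cells of the mouse retina, are known for converting much of their glucose to lactate even in the presence of oxygen. Hk1 is the widely expressed hexokinase of brain, Hk2 the form typical of insulin-sensitive tissue and of photoreceptors, Aldoc the aldolase of brain, Eno2 the enolase known as neuron-specific enolase, and Ldha and Ldhb encode the muscle-type and heart-type subunits.

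Libraries held 7076646 to 11330762 reads, as recovered from the CPM steps, so that 1 read was worth 0.0882 to 0.141 CPM. The cell types of the libraries moved with age, since the summed level of 4 rod genes (Nrl, Gnat1, Pde6b and Nr2e3) rose from 7.79 to 12.1 CPM at E14 to 7547 to 9147 CPM at P60, while 4 progenitor genes (Fgf15, Mki67, Top2a and Sfrp2) went from 4146 to 4386 CPM down to 1.27 to 7.51 CPM. In whole tissue, fewer cells of a type and less RNA per cell cannot be told apart, and this holds for every level below. The summed levels of markers of lens, retinal pigment epithelium, red blood cells, vessels, microglia and muscle were each at or below 47.1 CPM in every library. At P60, replicates 1 and 2 stood apart, since their reads differed from each other by a chi-square of 3.13 per degree of freedom but from the other 4 by 7.63 to 19.3. They were also the 2 lowest libraries for 8 of the 10 genes (all but Pfkp and Ldhb), and their summed rod levels were 8139.5 and 7547 CPM, against 7983 to 9147 CPM in the other four.

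Of the 10 genes, 9 were higher in mature retina (P15, P28 and P60, 14 libraries) than in embryonic retina (6 libraries at E14 and E17), and 0 were lower. Rises were largest for Aldoc and Eno2, with log2 fold changes of 5.38 ± 0.07 and 4.30 ± 0.08 (SE), followed by Hk1 (3.14 ± 0.09), Hk2 (2.54 ± 0.09), Aldoa (2.0 ± 0.07), Pfkm (1.17 ± 0.09) and Pfkp (0.82 ± 0.05). Eno1 (0.44 ± 0.08) and Ldha (0.15 ± 0.06) rose less, and their mature and embryonic libraries overlapped. The call of Ldha (adjusted p = 0.027) was lost without E14 replicate 3, without E17 replicate 3 and with the replicate number as a block. Ldhb differed by -0.08, with a 95% interval of -0.25 to 0.09. These are values of limma on log2(CPM + 1), where a call means an adjusted p under 0.05.

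Among all features tested, 35.0% were called higher and 40.4% lower in the same comparison, against 9 and 0 of the 10 genes. A log2 fold change of at least 1 as well was reached by 6 of the 10 and by 14.9% of all features. The median log2 fold change was 1.59 over the 10 genes and -0.06 over all features tested. In 7 of the 10 every mature library lay above every embryonic one, as was so for 17.4% of all features. Over the 7 ages all 10 varied by limma's F test, Ldhb with an adjusted p of 0.042, as did 83.0% of all features. With a single library left out, the count was 9 to 10.

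**Figure D1:**
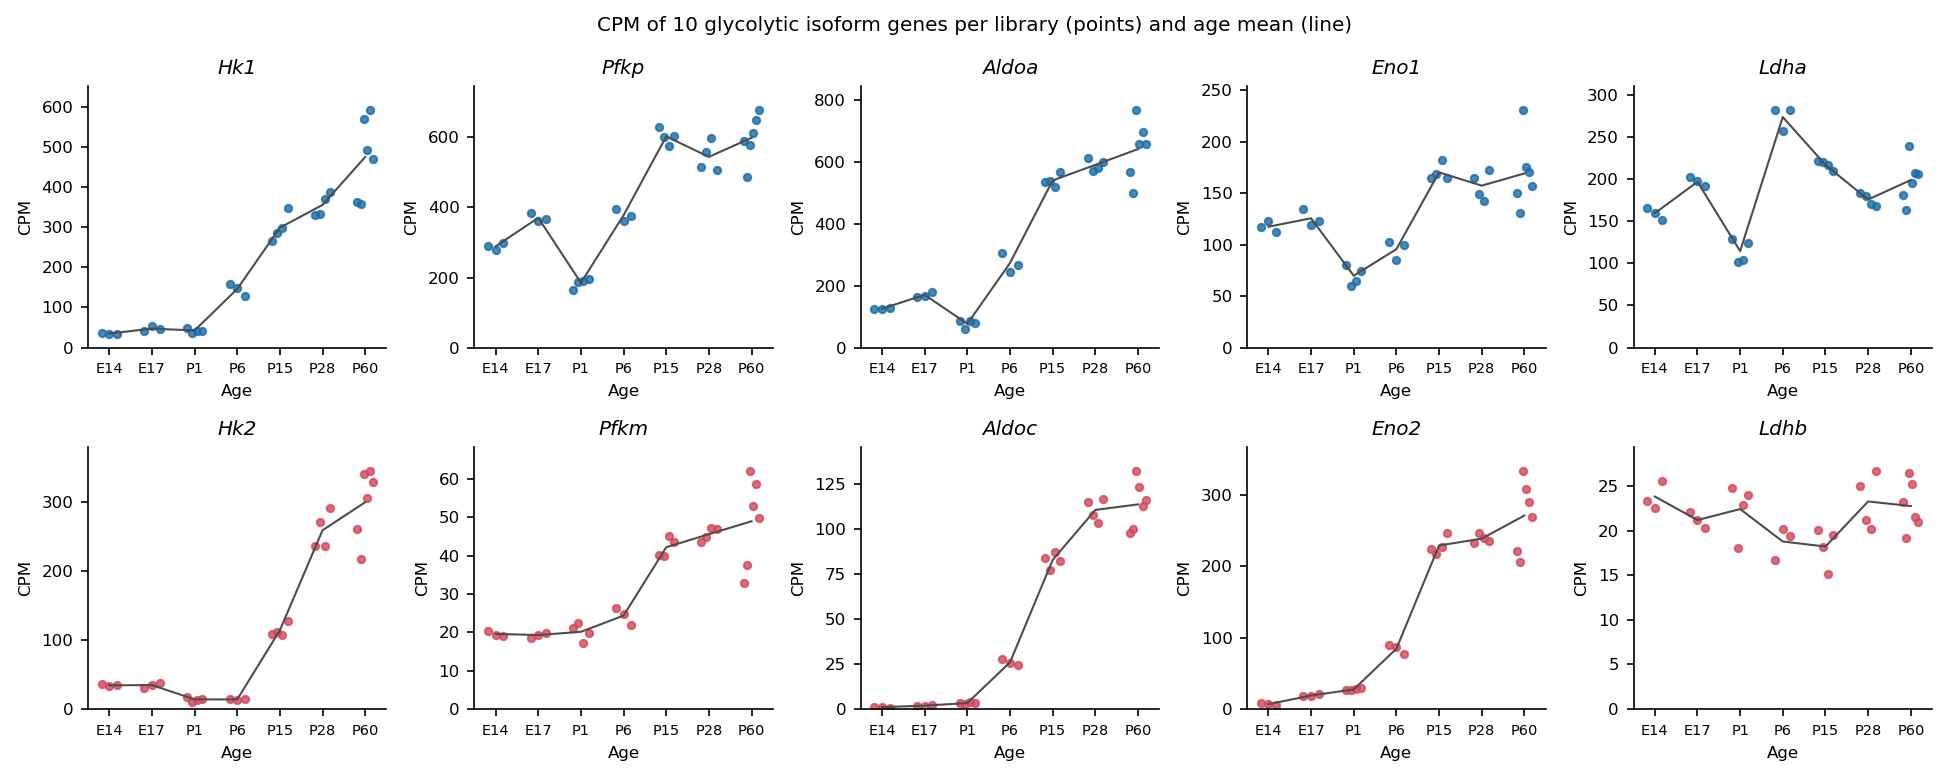
CPM of the 10 genes (vertical axes, linear from 0, a scale of its own for each gene) at the 7 ages, with 1 point per library and a line through the age means. Aldoc and Eno2 climb from near 0, Pfkp, Aldoa, Eno1 and Ldha dip at P1, Hk2 stays low until P6, and Ldhb stays between 15.1 and 26.6 CPM in all libraries.

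Hexokinase phosphorylates glucose on entry into the cell. Hk1 (GRCm38 chromosome 10, 62268855 to 62379908, minus strand) rose early and Hk2 (chromosome 6, 82725025 to 82774454, minus strand) rose late. Hk1 was measured at 36.6, 33.2 and 34.9 CPM in the 3 libraries at E14, at 41.7, 54.2 and 45.8 CPM at E17 and at 48.8, 37.1, 42.4 and 42.0 CPM at P1. It then stood at 159, 149 and 129.6 CPM at P6, at 264, 285, 297 and 348 CPM at P15 and at 329, 333, 371 and 388 CPM at P28. The 6 libraries at P60 ran from 359 to 592 CPM with a median of 481 CPM. The lowest library at P6 was above every library up to P1, and P15 lay above P6, whereas P60 overlapped P28.

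Hk2 was measured at 36.0, 32.9 and 34.5 CPM at E14, at 30.9, 35.1 and 38.5 CPM at E17 and at 17.9, 10.6, 13.6 and 14.4 CPM at P1. It remained at 14.3, 13.7 and 13.9 CPM at P6 and then stood at 109, 112, 108 and 128 CPM at P15. The libraries at P28 gave 237, 272, 236 and 292 CPM, and those at P60 ran from 218 to 345 CPM with a median of 318 CPM. Hk2 was thus lowest at P1 and P6, where its libraries lay below those of every age but these, and highest at P28 and P60.

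The fall of Hk2 at P1 was called (log2 fold change -1.26 ± 0.14, adjusted p = 3.93e-08), and so were its rises at P15 (2.94 ± 0.14, adjusted p = 2.82e-17) and P28 (1.17 ± 0.13, adjusted p = 3.77e-07). From P1 to P6 the difference of Hk2 was 0.01, with a 95% interval of -0.27 to 0.28. In that interval Hk1 rose by 1.75 ± 0.13 (adjusted p = 2.17e-12). At P15 Hk1 rose again, by 1.03 ± 0.13 (adjusted p = 3.51e-07).

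Because both genes were read from the same libraries, the log2 ratio of Hk2 to Hk1 was taken within each library. It was -0.02 ± 0.005 (SD, n = 3) at E14, -0.43 ± 0.18 (n = 3) at E17, -1.54 ± 0.14 (n = 4) at P1 and -3.29 ± 0.14 (n = 3) at P6. It came back to -1.37 ± 0.09 (n = 4) at P15, -0.45 ± 0.15 (n = 4) at P28 and -0.65 ± 0.12 (n = 6) at P60. Neighbouring ages did not overlap in this ratio up to P28, falling at each age to P6 and rising from there, and P60 overlapped P28. The mature and embryonic means differed by -0.58 ± 0.15 (SE; exact permutation test, two-sided, p = 0.00408), with overlapping groups. This is a 1.49-fold lower ratio over the mature libraries, which is small beside the course in between. P15 had the lowest mean of the ages compared and P28 overlapped E17, so the difference was not shared by all ages of the groups.

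Taken per kilobase of merged exons, the hexokinase genes changed places. Hk2 held 49.98 ± 0.24% (SD, n = 3) of the summed level of Hk1, Hk2, Hk3 and Hkdc1 at E14 and 8.86 ± 0.58% (n = 3) at P6, and Hk1 held 35.4 ± 0.25% and 64.4 ± 2.6%. At P60 they were near each other, with 51.5 ± 2.0% for Hk1 and 46.9 ± 2.3% for Hk2 (n = 6). The order of Hk1 and Hk2 at E14 and their distance at P60 depended on the length used, since with the longest transcript Hk1 held 48.6% and Hk2 37.2% at E14, and 65.9% and 32.6% at P60. Hkdc1 (hexokinase domain containing 1) held 12.4 ± 1.0% at E14 and 67.4 ± 3.8% (n = 4) at P1, and 1.48 ± 0.53% at P60. In CPM, Hkdc1 went from 7.32 ± 0.39 at E14 and 29.3 ± 2.7 at E17 to 79.9 ± 17.3 at P1, then to 35.9 ± 2.2 at P6 and 3.88 ± 0.25 at P28. Its rises at E17 (1.86) and P1 (1.39) and its falls at P6 (-1.11) and P15 (-2.08) were called.

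**Figure D2:**
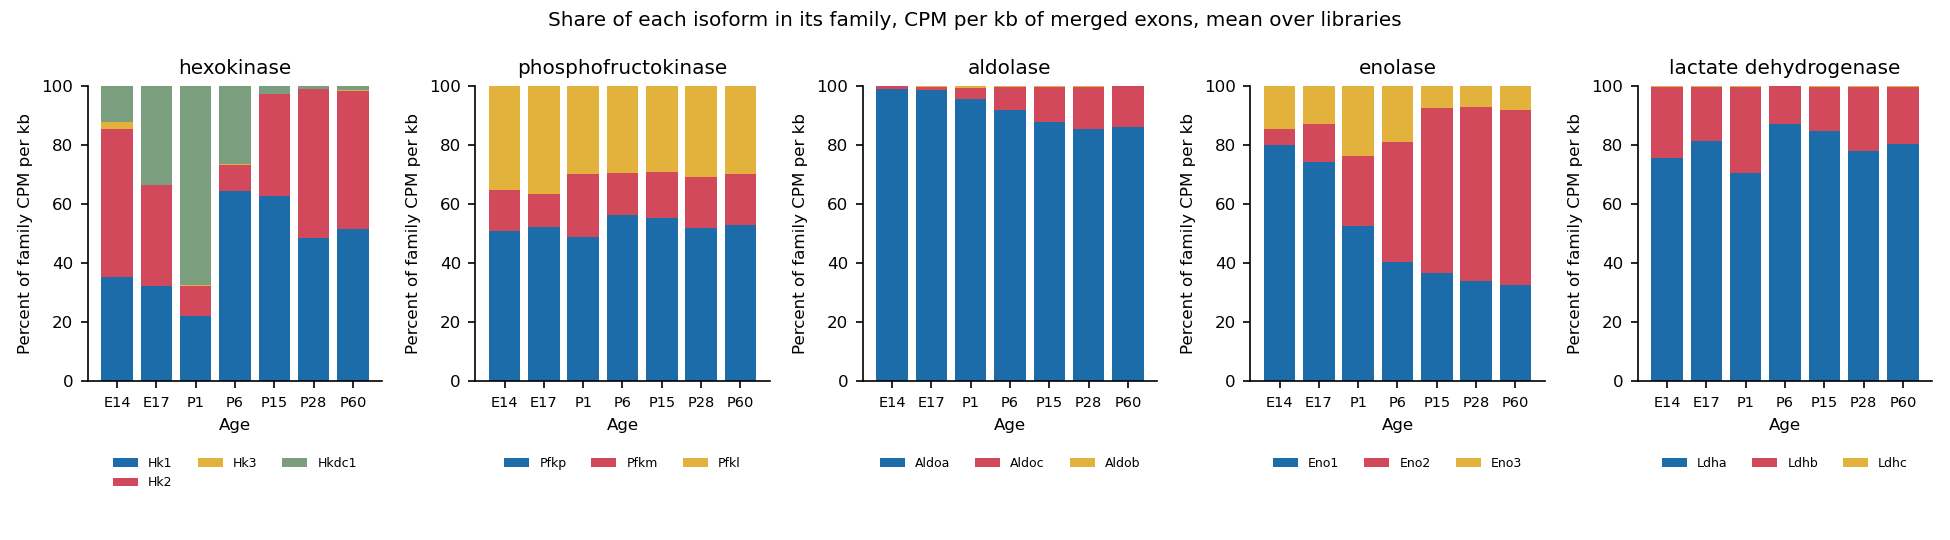
Percent of the summed level of each enzyme family, in CPM per kb of merged exons, held by each gene (colors) at the 7 ages, as means over the libraries of an age. Hkdc1 fills 67.4% of the hexokinase bar at P1, Hk1 64.4% at P6, and Eno2 goes from 5.34% of the enolase bar at E14 to 59.4% at P60. The enolase bar leaves out Eno1b, a copy of Eno1, and with it included Eno2 held 10.1% at P60.

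Phosphofructokinase commits sugar to glycolysis, and its platelet-type gene Pfkp (chromosome 13, 6579768 to 6648777, minus strand) and its muscle-type gene Pfkm (chromosome 15, 98092589 to 98132451, plus strand) kept their order throughout. Pfkp was measured at 290.0, 279 and 298 CPM at E14, at 383, 362 and 367 CPM at E17 and at 165, 188, 191 and 196 CPM at P1. It stood at 396, 362 and 376 CPM at P6, at 629.9, 601, 575 and 605 CPM at P15 and at 514, 559, 598 and 507 CPM at P28, and ran from 486 to 679 CPM with a median of 601 CPM at P60. Its libraries at P1 were the lowest of all, below every embryonic library, and those at P6 overlapped the ones at E17.

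Pfkm was measured at 20.3, 19.4 and 19.1 CPM at E14, at 18.6, 19.4 and 19.9 CPM at E17, and at 21.1, 22.3, 17.3 and 19.9 CPM at P1. It reached 26.4, 24.8 and 21.9 CPM at P6, 40.3, 39.9, 45.1 and 43.4 CPM at P15 and 43.4, 44.8, 47.1 and 47.0 CPM at P28, and ran from 32.8 to 62.0 CPM with a median of 51.4 CPM at P60. Its 3 youngest ages overlapped one another, and the only called step of Pfkm was the one from P6 to P15 (0.77 ± 0.14, adjusted p = 8.68e-05).

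Pfkp fell by 1.0 ± 0.08 on the log2 scale from E17 to P1 (adjusted p = 1.13e-10), rose by 1.03 ± 0.08 from P1 to P6 (adjusted p = 4.04e-12) and rose by 0.67 ± 0.08 from P6 to P15 (adjusted p = 7.25e-08). The log2 ratio of Pfkm to Pfkp was -3.82 ± 0.07 (SD, n = 3) at E14, -4.19 ± 0.09 (n = 3) at E17 and -3.14 ± 0.22 (n = 4) at P1, where Pfkp was low. It was -3.81 ± 0.13 (n = 4) at P15 and -3.61 ± 0.32 (n = 6) at P60. Between mature and embryonic retina it differed by 0.36 ± 0.11 (SE; exact permutation test, two-sided, p = 0.00544), and the 2 groups overlapped. E17 had the lowest mean of all ages and P15 overlapped E14, so the difference was not shared by all ages of the 2 groups. Per kilobase, Pfkp held 50.8 ± 1.6% (SD, n = 3) of the phosphofructokinase level at E14 and 52.9 ± 3.8% (n = 6) at P60, so that its share differed little between the ends of the series. The third gene, Pfkl, held 35.3% at E14 and 29.9% at P60, and Pfkm held 13.8% and 17.2%. The size of these shares rests on the length used, since the longest protein-coding transcript of Pfkp has 4145 bases and its merged exons 13401. Exons of Pfkp overlap those of Pitrm1 on the opposite strand, with 17.1% of the 50-base windows of its transcript shared, and exons of Pfkm overlap Senp1 and Gm26513 over 10.7% of their bases. Whether counting used the strand is not given in the sources used here.

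Aldolase cleaves fructose bisphosphate. Aldoa (chromosome 7, 126795234 to 126800751, minus strand) remained the major aldolase gene while Aldoc (chromosome 11, 78322968 to 78327781, plus strand) appeared beside it. Aldoc was measured at 1.1, 1.27 and 0.842 CPM at E14 (8 to 12 reads), at 1.64, 1.94 and 2.17 CPM at E17 and at 3.19, 3.03, 3.84 and 3.31 CPM at P1. It reached 27.7, 25.6 and 24.4 CPM at P6, 83.9, 77.0, 87.4 and 82.3 CPM at P15 and 115, 108, 103 and 116 CPM at P28, and ran from 97.6 to 132 CPM with a median of 114 CPM at P60. No library of one age reached the next age up to P28, and P60 overlapped P28.

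Each of those steps of Aldoc was called, with log2 fold changes of 0.50 ± 0.12 at E17, 0.57 ± 0.11 at P1, 2.63 ± 0.11 at P6, 1.64 ± 0.11 at P15 and 0.41 ± 0.11 at P28. The call at E17 was lost with edgeR and DESeq2 on the recovered reads, and the call at P28 when any one of P15 replicates 1, 2 and 4 and P28 replicates 1, 2 and 4 was left out. Over the whole series the mean of mature libraries was 69.5-fold that of embryonic ones, 104 against 1.49 CPM. The fitted log2 fold change understates this, since the added 1 CPM weighs on levels as low as those at E14. Summed levels of 4 Müller glia markers (Glul, Rlbp1, Aqp4 and Slc1a3) ran from 260.5 to 267 CPM at E14, from 359 to 377 CPM at P6 and from 912 to 1096 CPM at P60, and their part in the rise of Aldoc was not tested.

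Aldoa was measured at 125, 125 and 127 CPM at E14, at 164, 166 and 181 CPM at E17 and at 85.2, 58.6, 85.3 and 78.2 CPM at P1. It stood at 307, 246 and 267 CPM at P6, at 536, 539.6, 518 and 569 CPM at P15 and at 613, 571, 579 and 600.5 CPM at P28, and ran from 500.4 to 769 CPM with a median of 658 CPM at P60. Its P1 libraries were below all others. Aldoa fell by 1.15 ± 0.11 on the log2 scale at P1 (adjusted p = 3.38e-09) and rose by 1.83 ± 0.11 at P6 (adjusted p = 5.57e-15) and by 0.99 ± 0.11 at P15 (adjusted p = 1.63e-08).

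The log2 ratio of Aldoc to Aldoa was -5.94 ± 0.16 (SD, n = 3) at E14, -5.88 ± 0.08 (n = 3) at E17, -4.15 ± 0.20 (n = 4) at P1 and -3.35 ± 0.12 (n = 3) at P6. It was -2.69 ± 0.11 (n = 4) at P15, -2.41 ± 0.05 (n = 4) at P28 and -2.48 ± 0.11 (n = 6) at P60. Libraries at P1, P6, P15 and P28 each lay above those of the age before. Mature and embryonic libraries did not overlap, and their means differed by 3.39 ± 0.06 (SE; exact permutation test, two-sided, p = 2.58e-05, the smallest the 38760 arrangements can give). Per kilobase, Aldoc went from 0.753 ± 0.155% (SD, n = 3) of the aldolase level at E14 to 13.7 ± 0.9% (n = 6) at P60, and Aldoa held 86.2 ± 0.9% at P60.

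**Figure D3:**
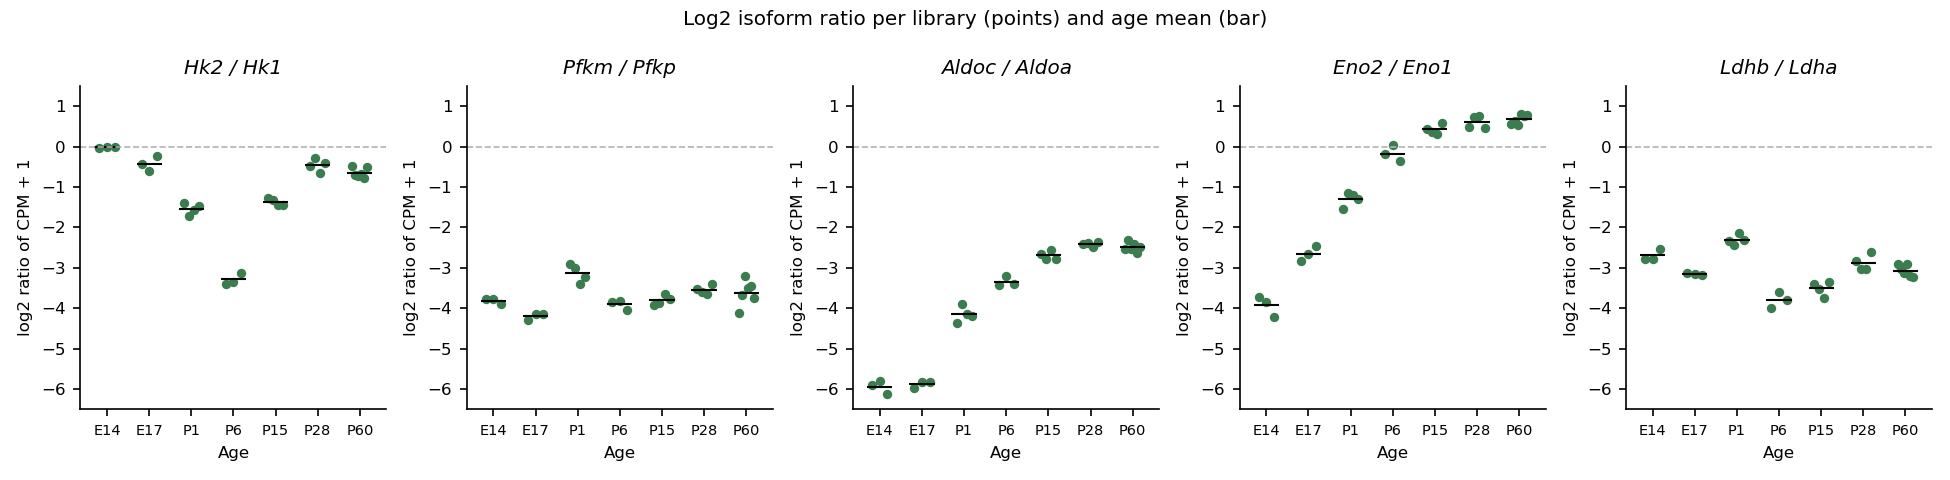
Log2 ratio of CPM + 1 of the second to the first gene of each enzyme (vertical axes, the same range in all panels) at the 7 ages, with 1 point per library and a bar at the age mean. The ratio of Hk2 to Hk1 has its low point at P6, the ratios of Aldoc to Aldoa and Eno2 to Eno1 climb with age and level off, and the ratios of Pfkm to Pfkp and Ldhb to Ldha are highest at P1.

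Enolase makes phosphoenolpyruvate, and here Eno2 (chromosome 6, 124760053 to 124769673, minus strand) overtook the Eno1 entry (chromosome 4, 150236721 to 150248879, plus strand) in CPM. It did not overtake Eno1 and its copy Eno1b summed, which stood at 1054 ± 115 CPM at P60 against 271 ± 50 CPM for Eno2 (SD, n = 6). Eno2 was measured at 7.90, 7.60 and 5.05 CPM at E14, at 17.9, 17.8 and 21.4 CPM at E17 and at 26.6, 26.3, 27.6 and 29.7 CPM at P1. It reached 89.2, 87.3 and 77.4 CPM at P6, 225, 218, 227 and 247 CPM at P15 and 232, 247, 240.2 and 236 CPM at P28, and ran from 205 to 333 CPM with a median of 279.5 CPM at P60. Ages up to P15 did not overlap, and those from P15 on did.

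Called steps of Eno2 were 1.37 ± 0.14 at E17 (adjusted p = 4.46e-09), 0.51 ± 0.13 at P1 (adjusted p = 0.00712), 1.58 ± 0.13 at P6 (adjusted p = 7.09e-12) and 1.43 ± 0.13 at P15 (adjusted p = 1.73e-10). Eno2 and Aldoc were the 2 genes of the 10 that were called higher at P1 than at E17.

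Eno1 was measured at 118, 123 and 112 CPM at E14, at 135, 119 and 123 CPM at E17 and at 79.8, 59.6, 64.8 and 74.6 CPM at P1. It stood at 102, 84.6 and 99.97 CPM at P6, at 165, 169, 182 and 165 CPM at P15 and at 165, 149, 142 and 173 CPM at P28, and ran from 131 to 231 CPM with a median of 163 CPM at P60. Its P1 libraries were the lowest and did not overlap with those of another age. Eno1 fell by 0.85 ± 0.12 on the log2 scale at P1 (adjusted p = 7.35e-06), and rose by 0.45 ± 0.12 at P6 (adjusted p = 0.00313) and by 0.83 ± 0.12 at P15 (adjusted p = 2.15e-06).

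Levels of Eno1 are uncertain in size, because 70.5% of the 50-base windows of its transcript are also found in transcripts of Eno1b, a near-identical copy. Eno1b held 87.1 ± 0.5% (SD, n = 3) of the summed CPM of both entries at E14 and 84.1 ± 1.5% (n = 6) at P60. Their sum went from 913 ± 24 CPM at E14 and 934 ± 23 CPM at E17 to 487 ± 72 CPM at P1, and then to 616 ± 45 CPM at P6 and 1101 ± 86 CPM at P15. With both entries summed (an analysis added after the data were seen), the steps were -0.95 at P1, 0.35 at P6 and 0.84 at P15, and the mature against embryonic difference was 0.19 ± 0.06 (SE; adjusted p = 0.00709) in place of 0.44.

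The log2 ratio of Eno2 to Eno1 rose from -3.93 ± 0.25 (SD, n = 3) at E14 to -2.66 ± 0.19 (n = 3) at E17, -1.30 ± 0.18 (n = 4) at P1 and -0.17 ± 0.21 (n = 3) at P6. It was 0.43 ± 0.12 (n = 4) at P15, 0.60 ± 0.16 (n = 4) at P28 and 0.68 ± 0.12 (n = 6) at P60. Libraries of neighbouring ages did not overlap up to P15. Mature libraries all lay above embryonic ones, with a difference of 3.88 ± 0.30 (SE; exact permutation test, two-sided, p = 2.58e-05, the smallest possible), and with Eno1b added to Eno1 it was 4.13. Per kilobase, Eno2 went from 5.34 ± 1.12% (SD, n = 3) of the summed level of Eno1, Eno2 and Eno3 at E14 to 59.4 ± 1.8% (n = 6) at P60, while with Eno1b included it held 10.1 ± 0.9% at P60. The share of Eno2 among enolase reads therefore rests on how reads of Eno1 and Eno1b are counted, whereas its rise does not.

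Lactate dehydrogenase had the same leading gene at all ages. Ldha (chromosome 7, 46841475 to 46855627, plus strand) was measured at 166, 160.2 and 152 CPM at E14, at 202, 197 and 191 CPM at E17 and at 129, 101, 104 and 124 CPM at P1. It stood at 282, 257 and 282 CPM at P6, at 221, 221, 216 and 209.8 CPM at P15 and at 183, 180.4, 171 and 169 CPM at P28, and ran from 164 to 239 CPM with a median of 201 CPM at P60. Ldha was highest at P6, above every library of every other age, and lowest at P1.

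Ldhb (chromosome 6, 142490249 to 142507957, minus strand) was measured at 23.3, 22.6 and 25.6 CPM at E14, at 22.1, 21.2 and 20.3 CPM at E17 and at 24.8, 18.0, 22.8 and 24.01 CPM at P1. It stood at 16.7, 20.2 and 19.4 CPM at P6, at 20.1, 18.2, 15.1 and 19.5 CPM at P15 and at 25.0, 21.2, 20.2 and 26.6 CPM at P28, and ran from 19.2 to 26.5 CPM with a median of 22.4 CPM at P60. None of its 6 steps was called, and the widest, from P15 to P28, was 0.34 with a 95% interval of 0.09 to 0.58.

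Ldha fell by 0.78 ± 0.09 on the log2 scale at P1 (adjusted p = 2.02e-07), rose by 1.26 ± 0.09 at P6 (adjusted p = 6.43e-13), and fell by 0.33 ± 0.09 at P15 (adjusted p = 0.00509) and by 0.30 ± 0.08 at P28 (adjusted p = 0.047). It was the one gene of the 10 called lower at P15 and at P28, and the latter call was lost when any of the 8 libraries of P15 and P28 was left out. The fall at P15 was not called by edgeR or DESeq2 or with median-of-ratios scaling. The log2 ratio of Ldhb to Ldha went from -2.69 ± 0.15 (SD, n = 3) at E14 to -2.30 ± 0.12 (n = 4) at P1, -3.80 ± 0.20 (n = 3) at P6 and -3.07 ± 0.15 (n = 6) at P60. Between mature and embryonic retina it differed by -0.21 ± 0.14 (SE; exact permutation test, two-sided, p = 0.152), with overlapping groups. The libraries at P60 lay below those at E14 but overlapped those at E17 (-3.16 ± 0.02, SD, n = 3), and those at P28 (-2.87 ± 0.20, n = 4) overlapped E14. Windows shared with other transcripts make up 16.6% of the Ldha transcript and 27% of that of Ldhb, the latter all with the copy Gm5514.

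The genes were ordered by CPM per kilobase of merged exons, with Eno1 taken without its copy Eno1b. Ldha (48.2 ± 2.2, SD, n = 3) and Aldoa (43.2 ± 0.3) led at E14, followed by Eno1 (21.8 ± 1.0) and Pfkp (21.6 ± 0.7), which overlapped each other. Aldoc came last with 0.328 ± 0.065 and Eno2 next to last with 1.46 ± 0.33. At P60 Aldoa led with 220.5 ± 32.7 CPM per kilobase (n = 6), above every library of the next gene. Ldha (60.1 ± 7.8), Eno2 (57.7 ± 10.6), Hk1 (55.6 ± 11.6), Hk2 (50.3 ± 8.5) and Pfkp (44.7 ± 5.0) followed, each overlapping the next. Pfkm (14.7 ± 3.5) and Ldhb (14.5 ± 1.7) were lowest and overlapped each other. Eno1b itself stood at 424 ± 11 CPM per kilobase (SD, n = 3) at E14 and 471 ± 44 (n = 6) at P60. These means lie above those of Ldha and Aldoa, and 70.5% of the windows of Eno1 are shared with Eno1b. The rank of Eno1, also against Ldha and Aldoa, therefore rests on how reads of Eno1 and Eno1b are counted. The order of Ldha and Aldoa between themselves does not. The order of the genes also depended on the length used. The length of Pfkp was 13401 bases for merged exons and 8681 for its longest transcript, but 4145 for its longest protein-coding one. The last was not used here and would give Pfkp a higher level, so its rank is uncertain. With the longest transcript Eno1 (57.9 ± 2.6) stood above Pfkp (33.3 ± 1.1) at E14, and after Aldoa the order at P60 was Hk1 (110.9), Ldha (109.6), Eno2 (97.1), Eno1 (83.4), Pfkp (69.0) and Hk2 (54.4), each overlapping the next, with Pfkm and Ldhb still lowest.

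The comparison of neighbouring ages shows when the genes moved. From E14 to E17, 5 of the 10 were called, all higher (Eno2 1.37, Aldoc 0.50, Aldoa 0.44, Pfkp 0.36 and Ldha 0.30), where 7.56% of all features were called higher and 3.02% lower. The count was 3 with edgeR and 2 with DESeq2 on the recovered reads, and without E17 replicate 3 it was 3. Calls of Eno2 and Pfkp were kept in every fit tried. That of Ldha (adjusted p = 0.0428) was lost when any one of the 6 libraries was left out and with no filter, median-of-ratios scaling, edgeR and DESeq2, and that of Aldoa was lost without E17 replicate 3, with median-of-ratios scaling and with DESeq2. Hk1 differed by 0.42, with an adjusted p of 0.0607.

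From E17 to P1, 5 genes fell (Hk2, Aldoa, Pfkp, Eno1 and Ldha) and Aldoc and Eno2 rose, where 3.43% of all features were called lower and 5.77% higher. One gene of each enzyme pair fell, and in each pair the other either rose or was not called (Hk1 -0.14, Pfkm 0.05 and Ldhb 0.07). The median log2 fold change was -0.46 over the 10 genes and 0.02 over all features tested.

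From P1 to P6, 7 genes rose and none fell, where 18.0% of all features were called higher and 20.4% lower. The rises ran from 0.45 (Eno1) to 2.63 (Aldoc), and Hk2 (0.01), Pfkm (0.26) and Ldhb (-0.24) were not called. From P6 to P15, 8 genes rose and Ldha fell, where 14.4% of all features were called higher and 19.0% lower. Hk2 had the largest rise of that interval among the 10, 2.94, in which rod gene levels rose from 1517 to 1699 CPM at P6 to 5504 to 5974 CPM at P15, and the part of the rods in these rises was not tested.

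After P15 few steps were called. From P15 to P28, Hk2 (1.17) and Aldoc (0.41) rose and Ldha (-0.30) fell, where 1.14% of all features were called higher and 1.58% lower, and the calls of Aldoc and Ldha were lost with a pseudocount of 0.1 and without several single libraries, as given above. From P28 to P60 Hk1 was the one gene called (0.39 ± 0.11, adjusted p = 0.0252), where 4.80% of all features were called higher and 8.11% lower. That call was lost without P28 replicate 1 or 2, without P60 replicate 3, 4 or 5, with the replicate number as a block and in a fit of the compared ages alone. Without P60 replicate 2, 4 genes were called. Hk1 stood at 363 and 359 CPM in P60 replicates 1 and 2, within the range at P28, and at 470.3 to 592 CPM in the other 4. With both replicates left out (an analysis added after the data were seen), Hk1 rose by 0.58 (adjusted p = 8.96e-06) and 7 of the 10 genes were called higher, where 13.4% of all features were called higher and 22.4% lower. Aldoc, Eno1 and Ldhb were the 3 not called. Since these replicates were the lowest P60 libraries for 8 of the 10 genes, leaving them out raises the P60 means by construction. The calls without them are therefore no test of a rise. In the comparison of mature and embryonic retina the count without P60 replicates 1 and 2 was 9.

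**Figure D4:**
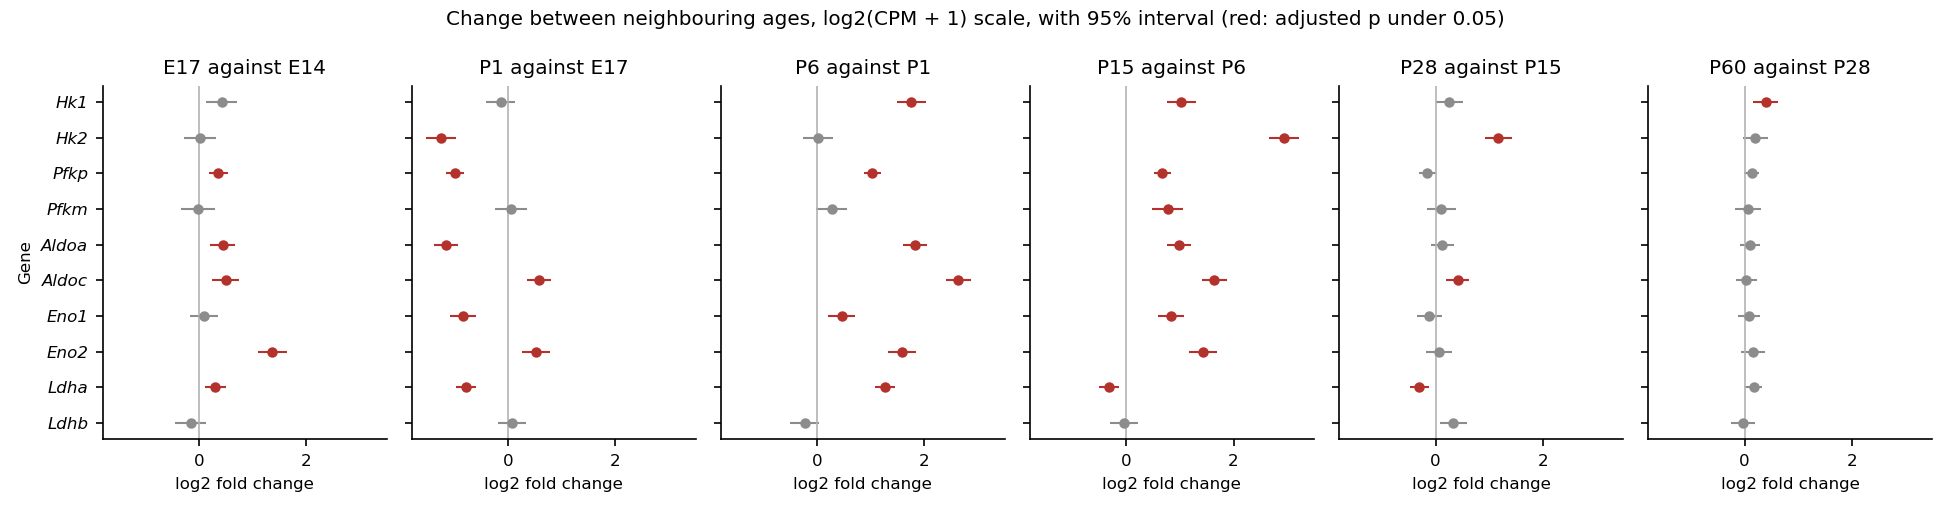
Log2 fold changes of the 10 genes between neighbouring ages (horizontal axes, log2(CPM + 1) scale) with 95% intervals from limma, red where the adjusted p is under 0.05. At P1, Hk2, Pfkp, Aldoa, Eno1 and Ldha lie left of 0 while Aldoc and Eno2 lie right of it, and in the last panel Hk1 alone is red.

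The rest of the pathway was read from a list of 23 other glycolytic genes, of which 20 passed the filter on low values. Between mature and embryonic retina 12 of the 20 were called higher and 4 lower, where 35.0% of all features were called higher and 40.4% lower, with a median log2 fold change of 0.37. Pfkfb2, which makes the signal sugar phosphate that activates phosphofructokinase, had the largest rise, with 25.1 ± 2.5 CPM (SD, n = 3) at E14, 511 ± 23 CPM (n = 4) at P15 and 469 ± 27 CPM (n = 6) at P60 (log2 fold change 4.08 ± 0.06), and 25.1% of its windows are shared with Gm29427. Gpi1 (glucose-6-phosphate isomerase) rose by 1.11 ± 0.06, Pgam1 (phosphoglycerate mutase) by 0.60 ± 0.10, Pfkl by 0.50 ± 0.07, Pkm (pyruvate kinase) by 0.34 ± 0.05 and Pgk1 (phosphoglycerate kinase) by 0.25 ± 0.08. Eno4 (1.34), Eno3 (0.69), Pfkfb4 (0.44) and Ldhd (0.41) also rose, Tpi1 (triose phosphate isomerase) fell by 0.25, Pfkfb3 fell by 0.26 and Hkdc1 fell by 1.14. Gapdh (0.08 ± 0.07) and Bpgm (0.06 ± 0.08) were not called. Windows shared with other transcripts reach 82.5% for Gapdh, 68.0% for Pgk1, 41.5% for Pgam1 and 34.4% for Pkm, so the levels of these genes are uncertain.

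At P1, 8 of the 20 other genes were called lower than at E17, 2 were called higher (Hkdc1 1.39 and Pfkfb2 0.37) and 10 were not called, where 3.43% of all features were called lower and 5.77% higher. Their median log2 fold change was -0.18. Tpi1 fell by 1.28, Pfkl fell by 1.20, Gpi1 fell by 1.02, Pfkfb3 fell by 0.95, Pgk1 fell by 0.85, Pgam1 fell by 0.80, Pkm fell by 0.76 and Gapdh fell by 0.72. At P6, 10 of the 20 were called higher than at P1 and 1 lower (Hkdc1), where 18.0% of all features were called higher and 20.4% lower. P1 is the age of the first libraries after birth, and the libraries of E17 and P1 were both of mixed sexes.

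A list of 7 genes known to respond to low oxygen outside glycolysis was read beside this fall. Its summed level ran from 427 to 496 CPM at E17, from 499 to 547 CPM at P1 and from 1271 to 1324 CPM at P6. Single genes moved in both directions at P1, since Vegfa (-0.88), Bnip3 (-1.22) and Egln3 (-1.13) fell, Ankrd37 (-0.36) was not called and Ndrg1 (1.11) rose, while Car9 and Adm were below the filter on low values. At P6 Vegfa rose by 0.78, Bnip3 by 0.57, Ankrd37 by 1.34 and Ndrg1 by 1.51, and the 0.36 of Egln3 was not called. The part of these responses in the levels of the glycolytic genes was not tested.

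**Figure D5:**
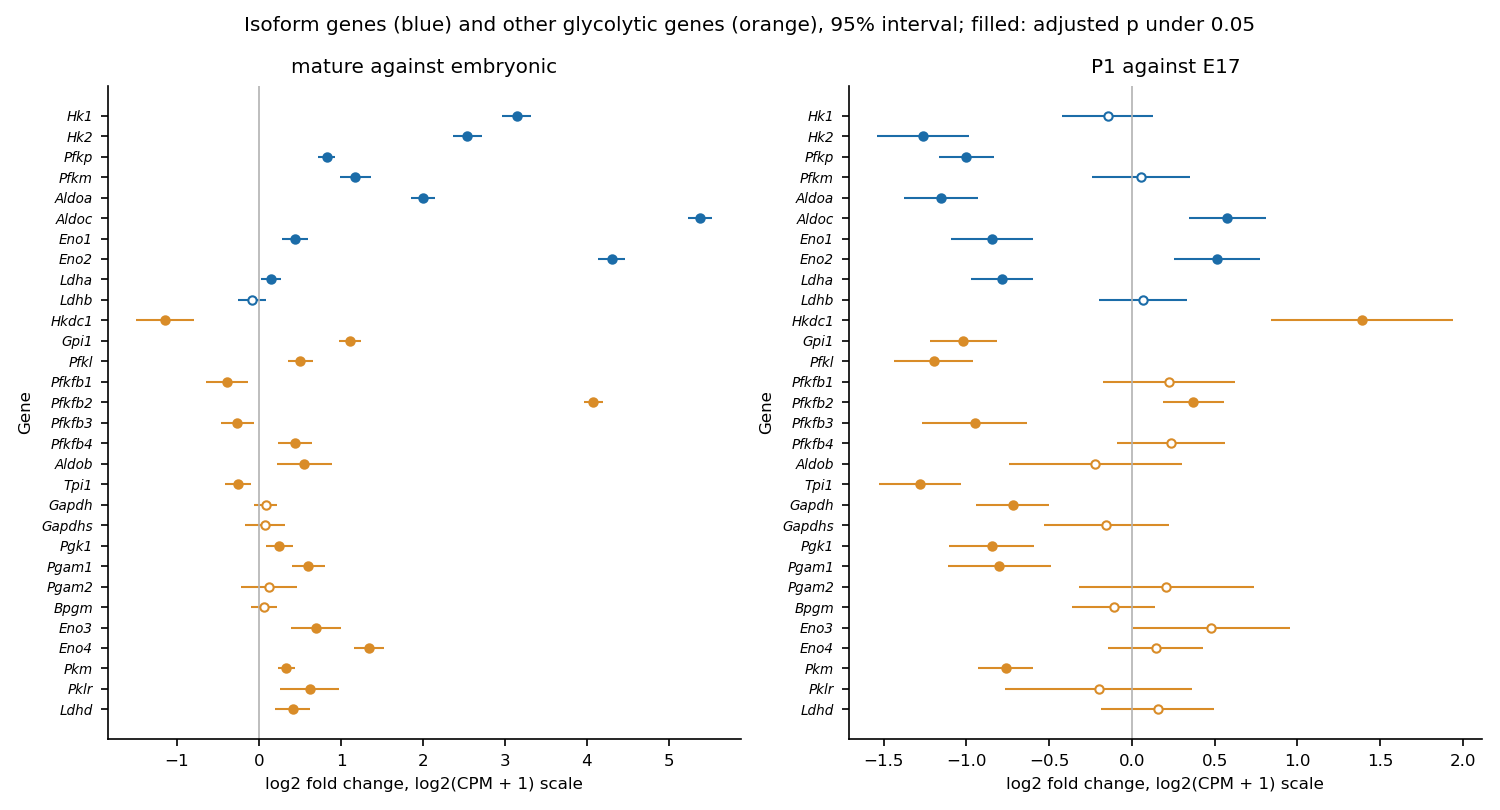
Log2 fold changes (horizontal axes, log2(CPM + 1) scale) with 95% intervals from limma for the 10 isoform genes (blue) and the 20 other glycolytic genes tested (orange), filled where the adjusted p is under 0.05. Aldoc, Eno2 and Pfkfb2 stand farthest right in mature against embryonic retina, and Tpi1, Hk2, Pfkl, Aldoa, Gpi1 and Pfkp farthest left in P1 against E17.

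Promoters of 3 of the 5 genes that fell at P1 and of 3 of the 5 that did not are shown, chosen after their matches were seen so that both groups hold windows with and without ACGTG. They are from RefSeq on GRCm38.p6, with 250 bases before and 50 after the start. Capitals mark ACGTG, the core of the hypoxia response element, on either strand (as CACGT on the strand shown, and within CACGTG, a palindrome that holds it on both strands), and TAATCC, the core bound by CRX and OTX2, on either strand (GGATTA on the opposite one). Ldha, Hk2 and Pfkp fell at P1, Hk1 was not called there, and Aldoc and Eno2 rose.
Ldha, chr7:46845554-46845853, plus strand: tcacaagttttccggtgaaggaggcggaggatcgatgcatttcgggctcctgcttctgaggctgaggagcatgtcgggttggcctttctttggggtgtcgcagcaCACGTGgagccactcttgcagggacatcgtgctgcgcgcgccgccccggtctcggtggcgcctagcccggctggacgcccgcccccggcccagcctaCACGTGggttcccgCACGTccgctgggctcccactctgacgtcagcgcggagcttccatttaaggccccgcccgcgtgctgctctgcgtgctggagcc
Hk2, chr6:82774405-82774704, minus strand: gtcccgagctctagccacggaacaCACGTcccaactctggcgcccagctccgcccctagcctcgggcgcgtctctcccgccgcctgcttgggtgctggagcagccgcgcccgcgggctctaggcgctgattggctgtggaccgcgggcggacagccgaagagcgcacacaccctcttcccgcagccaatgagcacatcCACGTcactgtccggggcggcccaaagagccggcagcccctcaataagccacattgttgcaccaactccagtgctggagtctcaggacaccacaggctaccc
Pfkp, chr13:6648722-6649021, minus strand: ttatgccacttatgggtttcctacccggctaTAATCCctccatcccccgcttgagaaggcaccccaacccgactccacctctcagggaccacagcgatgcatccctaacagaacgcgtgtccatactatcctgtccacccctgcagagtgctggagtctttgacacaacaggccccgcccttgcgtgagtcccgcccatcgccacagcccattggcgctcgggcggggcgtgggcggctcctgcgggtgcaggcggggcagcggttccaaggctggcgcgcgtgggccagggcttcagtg
Hk1, chr10:62340372-62340671, minus strand: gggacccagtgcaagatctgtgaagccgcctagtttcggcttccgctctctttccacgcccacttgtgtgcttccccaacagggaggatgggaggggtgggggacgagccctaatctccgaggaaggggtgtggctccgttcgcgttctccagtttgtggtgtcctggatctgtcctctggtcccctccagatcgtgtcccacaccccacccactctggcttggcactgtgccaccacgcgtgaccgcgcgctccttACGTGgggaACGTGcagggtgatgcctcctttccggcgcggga
Aldoc, chr11:78322823-78323122, plus strand: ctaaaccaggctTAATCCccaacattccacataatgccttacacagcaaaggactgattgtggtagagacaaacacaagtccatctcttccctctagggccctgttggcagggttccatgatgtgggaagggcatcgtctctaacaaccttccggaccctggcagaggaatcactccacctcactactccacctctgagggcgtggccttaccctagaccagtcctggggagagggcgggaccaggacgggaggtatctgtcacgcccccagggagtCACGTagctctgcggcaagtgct
Eno2, chr6:124769624-124769923, minus strand: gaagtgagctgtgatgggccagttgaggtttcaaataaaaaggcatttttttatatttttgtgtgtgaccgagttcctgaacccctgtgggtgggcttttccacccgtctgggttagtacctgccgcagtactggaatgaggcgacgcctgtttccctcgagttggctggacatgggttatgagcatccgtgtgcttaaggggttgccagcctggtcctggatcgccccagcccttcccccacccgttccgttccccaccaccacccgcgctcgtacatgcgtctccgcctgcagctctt

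Ldha held 2 CACGTG and 1 further CACGT, Hk2 and Hk1 each 2 ACGTG, Aldoc 1 ACGTG and 1 TAATCC, Pfkp 1 TAATCC and no ACGTG, and Eno2 neither. All 10 genes matched an entry, with 20 promoters in all, some of which overlap. ACGTG was found in 8 of the 20, belonging to 6 of the 10 genes, against 19.6% of 32851 promoters in the table, and CACGTG in 7.15% of the table. TAATCC was found in 4 of the 20, belonging to 4 genes, against 7.06% of the table. Of the 5 genes that fell at P1, Hk2, Aldoa and Ldha held ACGTG in a window and Pfkp and Eno1 held it in none, and of the 5 that did not fall, Hk1, Pfkm and Aldoc held it and Eno2 and Ldhb did not. These matches are a description of the windows.

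The genes whose log2 levels ran most like each of the 10 were found over the 27 libraries among 10716 genes with a mean of at least 10 CPM. Since all libraries share the course of development, these values of Pearson's r describe likeness only. For Hk1 they were Prkcz, Mapre3 and Arr3 (0.992 each) and for Hk2 Vax2os (0.975), Cdr2 (0.970) and Ttc39c (0.969). An r above 0.95 was reached by 628 genes for Hk1 but 24 for Hk2, 867 for Aldoc, 780 for Eno2 and 130 for Pfkm. Aldoc ran closest to Osbp2 (0.998), Smarca2 and Rasgrf1 (0.997 each), Eno2 to Sncb (0.997), Aipl1 (0.996) and Ahnak2 (0.995), and Pfkm to B4galt2 (0.975), Ccdc24 (0.974) and Psap (0.973).

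Of the 5 genes that fell at P1, Pfkp, Aldoa and Eno1 had other glycolytic genes among their 3 most alike, and Hk2 and Ldha had none. Pfkp was most like Gpi1 (0.976), Plekhd1 (0.960) and Lrp1b (0.957), Aldoa most like Pde4dip (0.983), Gpi1 (0.982) and Lrp1b (0.979), and Eno1 most like Pkm (0.954), Pfkl (0.953) and Gm10481 (0.927). For Ldha the highest r were 0.837 (Samsn1 and Pgm2) and 0.828 (Hecw1), and for Ldhb 0.726 (Tyw1), 0.657 (Nubp1) and 0.637 (Pdp2). Neither lactate dehydrogenase gene had another at an r above 0.95.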

How the data were processed

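Whole-retina RNA-seq of 27 libraries at 7 ages was read from 1 table. Per the labels and methods, the authors built libraries from total RNA with the SMARTer kit, sequenced single-end reads of 50 bases and aligned them to GRCm38 (mm10) with STAR, and they deposited CPM values per feature (38168 features, 14905 of them without a Gene ID). The annotation and strand setting are not given in the sources used here. All values came out as whole reads of each library's step (100% within 0.01 of a read; in E14 replicate 1 the step was too close to a round number to be judged automatically).

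Tests used log2(CPM + 1) of the 31760 features that reached 1 CPM in 3 or more libraries. One limma fit (version 3.58.1, R 4.3.3, trend option) took age as factor over the 27 libraries, and p-values were adjusted over the tested features by Benjamini-Hochberg. The added 1 CPM makes fold changes of low genes too small. Isoform ratios were compared by exact permutation over libraries, with 5 ratios and unadjusted p-values. Libraries were exchanged without regard to age, although each group holds several ages, so these p-values do not measure the spread between ages. The 10 genes, the list of 23 other glycolytic genes and the markers were chosen with earlier results of these data known, and 1 gene of each of 2 lists is not reported here. All 10 genes are described in every comparison, other glycolytic genes with a mean of at least 10 CPM are named, and the 3 most alike genes are given for each of the 10. Alternatives were a pseudocount of 0.1, no filter, a mean of at least 10 CPM, median-of-ratios scaling, a replicate block, the compared ages only, edgeR 4.0.16 (quasi-likelihood, TMM) and DESeq2 1.42.0 on the recovered reads, summed entries of a symbol, and each library left out. Lengths, overlaps and shared 50-base windows came from GENCODE M21 on GRCm38. On simulated reads with 200 genes changed by a log2 fold change of 1.5, limma recovered 200 with 3 to 17 false calls among 30451 to 30520 features. The simulation gave all other genes the same mean at every age and all genes the same fixed spread. Its counts therefore check the code and do not carry over to these data. No pair of same-age libraries agreed within sampling noise (lowest chi-square per degree of freedom 1.69).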

Additional observations from a re-analysis of the deposited data

How the results depend on the processing

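The call of 9 genes higher in mature retina stayed at 9 under 8 of the alternatives and the 3 added analyses (Eno1 and Eno1b summed, edgeR without E14 replicate 1, and P60 replicates 1 and 2 left out). It was 8 to 9 with each of the 20 libraries left out, 8 with the replicate block, where Ldha was the gene lost, and 6 with a log2 fold change of at least 1. That fold minimum lowered the other counts by its construction, from 5 to 1 at E17, 7 to 3 at P1, 9 to 4 at P15, 3 to 1 at P28, 1 to 0 at P60 and 16 to 4 for the other glycolytic genes (15 to 16 with a library left out). The 5 genes called at E17 became 3 with median-of-ratios scaling, 3 with edgeR, 2 with DESeq2, 2 with edgeR without E14 replicate 1, and 3 to 5 with a library left out. At P28 the 3 became 1 with a pseudocount of 0.1 and 1 to 2 with a library left out. At P60 the 1 became 2 with DESeq2, 0 in a fit of the compared ages only and 0 to 4 with a library left out. It was 7 with P60 replicates 1 and 2 left out, which were the lowest P60 libraries for 8 of the 10 genes. In limma 2 of the 10 genes had an unadjusted p under 0.05 at P60. Counts at P1, P6 and P15 moved by less than 1.5 times otherwise. The cause of these differences was not tested. All 5 isoform ratios kept their direction and their side of 0.05 under every alternative that gave a p.

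Same-numbered libraries of neighbouring ages did not deviate together (r of deviations from -0.0962 to 0.0932, 0 of 20 pairs over 0.1). How the numbers were given is not stated in the sources used here, and whether same-numbered libraries were handled together was not tested. With the replicate number as a block the counts were 8 in mature retina, 6 at E17 and 0 at P60, and the F test was not run with a block or on the compared ages only.

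Genes that were not called changed sign around 0. Ldhb in mature retina was 0.0263 with edgeR, 0.00464 with DESeq2 and 0.0155 with edgeR without E14 replicate 1. Hk2 at E17 was -0.0400 with median-of-ratios scaling, -0.00817 with edgeR and -0.0345 with DESeq2. Ldhb at P15 was 0.0218 with median-of-ratios scaling, 0.0190 with edgeR, 0.0207 with DESeq2 and 0.0192 with edgeR without E14 replicate 1. Ldhb at P60 was 0.0374 with median-of-ratios scaling, 0.0424 with DESeq2, 0.0286 with edgeR with or without E14 replicate 1, 0.0186 with P60 replicates 1 and 2 left out, and 0.0132 with the block, where Pfkm was -0.0219. With a library left out, Hk2 lay between -0.0635 and 0.0915 at E17 and between -0.113 and 0.122 at P6, and Pfkm between -0.0409 and 0.00456 at E17 and between -0.00776 and 0.172 at P60. Ldhb lay between -0.124 and 0.0376 at P15 and between -0.0928 and 0.0358 at P60, where Aldoc lay between -0.0120 and 0.0742 and Eno1 between -0.00791 and 0.155. At 8 to 12 reads per library, Aldoc at E14 is the level that depth limits most.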

Other observations

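The levels of the 10 genes and the 5 isoform ratios were screened for single libraries standing far from the others of their age, in 60 groups of 4 or 6 libraries (P1, P15, P28 and P60), by the gap to the nearest library over the range of the group. None of the 60 passed the 95% limit, where chance passes about 1 in 20. The rule looks for 1 library standing alone, so it can miss 2 that are low together. P60 replicates 1 and 2, the 2 lowest for 8 of the 10 genes, are such a case.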
